A study of Rattus norvegicus with 108 samples.

Results

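The genes Calb2, Drd2, Csf2rb, Sv2b, Ociad2 and Glipr1 are used as markers of hippocampal mossy cells. They were taken by symbol, 6 of the 19127 genes in single-cell count tables of the rat dentate gyrus, from its dorsal (dorDG) and ventral (venDG) portion. All 6 were found in both tables. Mossy cells are large glutamatergic neurons of the hilus, the layer enclosed by the granule cell blades. They receive input from granule cells through the mossy fibres and send axons back to granule cells and interneurons along the length of the dentate gyrus. Calb2 encodes the calcium-binding protein calretinin and Drd2 a dopamine receptor, and both are used to identify mossy cells in rodents, although calretinin in the hilus depends on species and on position along the dorsoventral axis.

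The study compared male Long-Evans rats from Charles River, 2 months old at the start, that drank fluoxetine at 18 mg/kg (FT) or water alone (Sham) for 6 weeks. A replicate was tissue pooled from 3 animals, and the p-values below measure the spread between such pools. dorDG had 4 FT and 5 Sham replicates and venDG had 5 of each. Cells were profiled with 10x Genomics 3′ gene expression, which counts unique molecular identifiers (UMIs), 1 for each captured RNA molecule. The labels speak of nuclei, the study's methods of both whole cells and nuclei, and neither says which reaction held which.

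The tables gave 1289 dorDG and 2058 venDG cells from 27 reactions. Replicates held 99 to 197 cells in dorDG FT, 100 to 230 in dorDG Sham, 119 to 384 in venDG FT and 42 to 331 in venDG Sham, with 220162 to 1523537 UMIs each. The authors' cell annotation gave each dorDG cell 1 of 12 labels. Only 9 barcodes occurred in more than 1 reaction (18 cells). Cells with under 2% of their UMIs in ribosomal protein genes made up 14.5% to 42.1% of a replicate in dorDG FT and 31.9% to 72% in dorDG Sham (two-sided exact permutation p = 0.0317, smallest possible 0.0159, n = 4 and 5). Where a replicate had 2 reactions (8 replicates), such cells were 4.08% to 15.5% of the first and 78.3% to 95.9% of the second in order of reaction name. Whether these correspond to cells and nuclei cannot be told apart from the labels.

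Detection of the 6 genes was sparse. Levels below are UMIs per 10000 UMIs, and the intervals and floors cover counting error only. In dorDG, Sv2b gave 186 UMIs in 113 cells, Calb2 76 UMIs in 27 cells, Glipr1 18 UMIs in 17 cells and Ociad2 12 UMIs in 12 cells. Drd2 gave 2 UMIs and Csf2rb 1. In venDG the counts were 408 for Sv2b, 43 for Calb2, 25 for Glipr1, 14 for Ociad2, 10 for Drd2 and 7 for Csf2rb. Thus 2 of the 6 genes, Drd2 and Csf2rb, were too rare in dorDG for their distribution over labels to be read, and 10 and 11 of the 12 labels held none of their UMIs. Few cells carried more than 1 of the genes. In dorDG 1129 cells had none, 149 had 1, 10 had 2 and 1 had 3, while in venDG 1782 had none, 255 had 1, 19 had 2, 1 had 3 and 1 had 4.

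**Figure D1:**
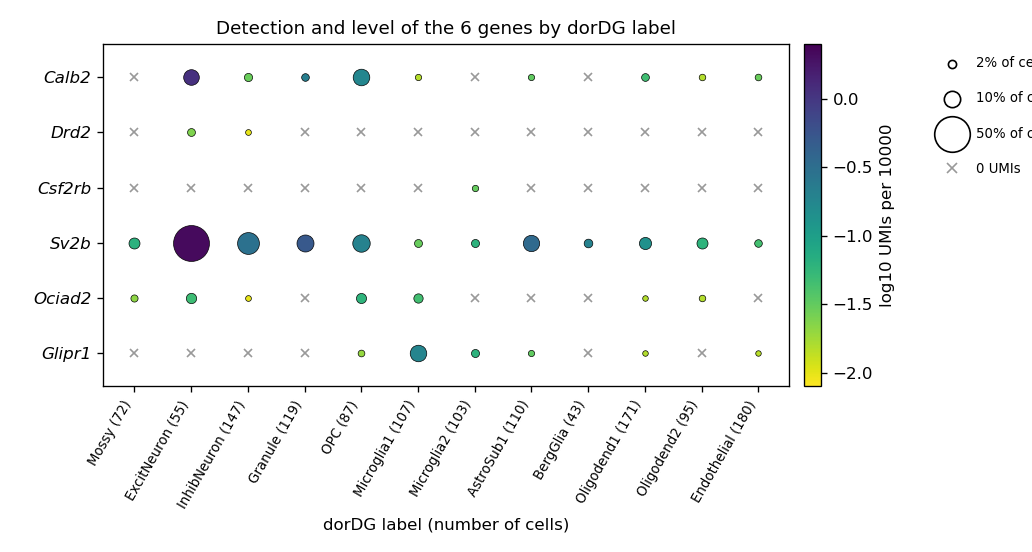
Detection and level of the 6 genes (rows) in the 12 dorDG labels (columns, with the number of cells). Circle area gives the percent of cells with a UMI, colour the log10 of UMIs per 10000 and a cross 0 UMIs. The Mossy column holds circles for Sv2b and Ociad2 alone, and the largest circle is Sv2b in ExcitNeuron at 50.9% of 55 cells.

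The cells that the authors labelled Mossy held almost none of these markers. The label covered 72 cells (49 FT, 23 Sham) in 8 of the 9 dorDG replicates, with none in Sham replicate 3, and these cells had a median of 4722.5 UMIs. Calb2, Drd2, Csf2rb and Glipr1 had 0 UMIs among the 471300 UMIs of the label. A count of 0 in 72 cells allows a share of cells with a UMI of up to 4.17% by the 3-count floor and 4.99% by the exact Clopper-Pearson 95% interval, and a level of up to 0.0637 UMIs per 10000. At the level found in all other dorDG cells, 6.33 UMIs of Calb2 and 1.5 of Glipr1 would have been counted there, but only 0.166 of Drd2 and 0.0832 of Csf2rb. The Calb2 value rests largely on 1 ExcitNeuron cell, which held 40 of the 76 dorDG UMIs. The Glipr1 value lies below the 3 counts that a count of 0 allows. An absence of Glipr1, Drd2 or Csf2rb from the label was therefore not detectable at this depth.

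Sv2b encodes a synaptic vesicle glycoprotein of neurons and endocrine cells. It was found in 3 of the 72 cells labelled Mossy, 1 UMI each, in FT replicates 1, 2 and 5. That is 4.17% of cells (exact 95% interval 0.868% to 11.7%), against 1.67% (0.345% to 4.79%) of 180 Endothelial cells (not neurons), whose median depth was 2945 UMIs. The level in the label was 0.0637, compared with 0.323 in all other dorDG cells, and 15.2 UMIs would have been counted at the latter. In 1 random draw of 1500 UMIs per cell, 0 of the 68 Mossy cells deep enough and 0 of 143 Endothelial cells had a UMI. Ociad2, which encodes a protein of endosomes and mitochondria, was found in 1 cell (1.39%, 0.0352% to 7.50%). Its level was 0.0212 in the label and 0.0194 in all other dorDG cells, at which 0.916 UMIs would have been counted. Ociad2 was thus not lower in the label. In total 68 of the 72 cells carried none of the 6 genes and 4 carried 1. No gene of the 6 had its highest level in the Mossy label. Among the 12 labels, Mossy ranked 8 for Sv2b and 4 for Ociad2, and tied at 0 for the other genes.

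The same cells carried the markers of mural cells, the pericytes and smooth muscle cells that wrap blood vessels. All 16 mural markers present in the tables (of 18 listed) had a level at least 2-fold that of the other dorDG cells and a UMI in at least 10% of the Mossy cells, as a description with no test because the labels were made from the same cells. Pdgfrb, the receptor for the growth factor that recruits pericytes, was at 3.23 UMIs per 10000 against 0.224 elsewhere and was found in 73.6% of the cells. Rgs5 was found in 73.6% and Higd1b in 75.0%, and Vtn stood at 7.89 against 0.141. Taken cell by cell, 63 of 72 (87.5%) had UMIs of 3 or more mural markers, while the next highest labels were OPC at 17.2% and Endothelial at 7.22%. The summed mural level was 44.2 in the label and 13.5 to 120 by replicate. The highest value came from the single Mossy cell of Sham replicate 5 and the lowest from the 5 cells of Sham replicate 2.

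Of the 7 pan-neuronal markers present in the tables, 0 met the same rule in the Mossy label. Of the 6 excitatory markers 0 met it either, and Slc17a6 and Tbr1 had 0 UMIs there. Slc17a7, the vesicular glutamate transporter of dentate and cortical excitatory neurons, was at 0.212 against 1.2 in the other cells. The summed pan-neuronal level was 3.76 (0 to 4.95 by replicate), close to the 4.47 of Endothelial cells and below the 38.8 of ExcitNeuron. Endothelial markers met the rule for 5 of 6 genes, with a summed level of 24.3 against 37.1 in the Endothelial label. The defining markers therefore go against the label's name, and the cells are called below by that label only as the authors' name for the group.

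Further genes of hilar neurons gave the same reading. Nmb had 0 UMIs in the label. Dkk3 stood at 0.127 against 0.138 in the other cells, and Gria3, a subunit of AMPA-type glutamate receptors, at 0.785 against 2.73. None of the 11 hilar and pyramidal neuron genes measured met the rule in the label, whose summed level for them was 4.67 (2.95 to 7.02 by replicate), against 49.1 in ExcitNeuron. Among the nearest relatives of the 6 genes (13 measured), only Il3ra did, at 0.318 against 0.106. Its product is a cytokine receptor subunit that pairs with the common beta chain encoded by the Csf2rb gene. Sv2a and Sv2c, the other vesicle proteins of the SV2 family, were at 0.0849 and 1.34 in the Mossy label against 0.427 and 2.19 elsewhere.

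**Figure D2:**
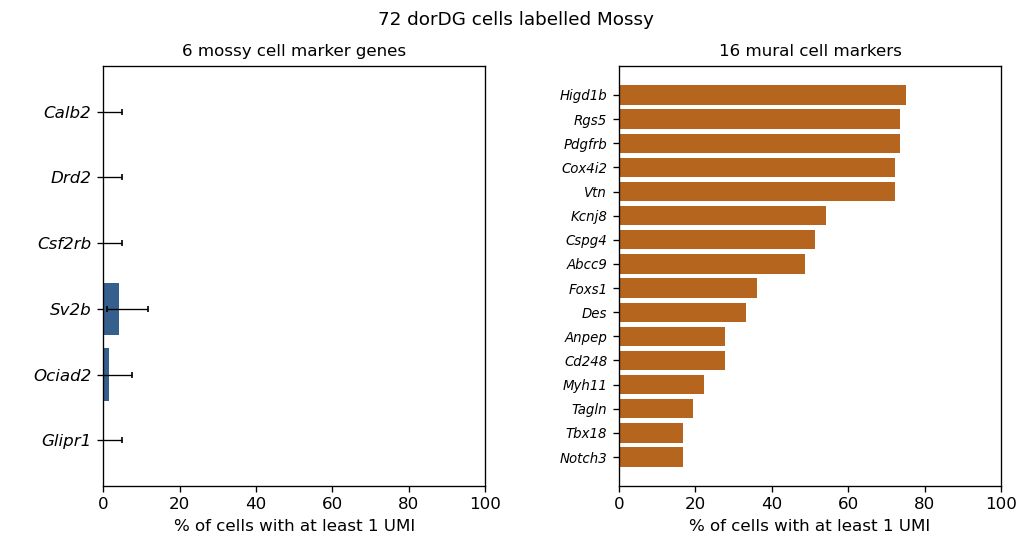
Percent of the 72 cells labelled Mossy with at least 1 UMI of each gene (horizontal axis), for the 6 mossy cell markers on the left, with exact Clopper-Pearson 95% intervals, and the 16 mural markers on the right. The left bars reach at most 4.17% (Sv2b), whereas Higd1b reaches 75.0% on the right.

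Sv2b was highest in the neurons labelled ExcitNeuron, where 28 of 55 cells had a UMI (50.9%, exact 95% interval 37.1% to 64.6%) at a median depth of 6372 UMIs. The level there was 2.17, followed by Granule at 0.511, AstroSub1 at 0.355 and InhibNeuron at 0.296. Sv2b was the only gene of the 6 with at least 1 UMI in all 12 labels. The 3 neuronal labels (ExcitNeuron, InhibNeuron and Granule, 321 cells) held 141 of its 186 dorDG UMIs, or 75.8%.

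Across replicates, the level of Sv2b in ExcitNeuron was 3.29 in FT 1 (3 cells), 0.417 in FT 2 (26 cells), 0 in FT 4 (1 cell) and 3.22 in FT 5 (1 cell). In the Sham replicates it was 1.67 in Sham 1 (6 cells), 3.29 in Sham 3 (5 cells), 3.83 in Sham 4 (9 cells) and 1.95 in Sham 5 (4 cells). FT replicate 2 supplied 26 of the 55 cells and stood far below the other replicates with more than 1 cell. Without it, 79.3% of the 29 remaining cells had a UMI, at a level of 3.10. When cells were thinned to 1500 UMIs by 1 random draw, 22.4% of 49 ExcitNeuron cells kept a Sv2b UMI. So did 12.1% of 58 Granule cells, 6.41% of 78 AstroSub1 cells and 4.08% of 147 InhibNeuron cells.

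The order of labels below ExcitNeuron was not firm. Replicate levels ran from 0 to 1.71 in Granule (0.590 ± 0.630, SD, n = 9), from 0 to 0.678 in AstroSub1 (0.344 ± 0.231, n = 9) and from 0 to 0.407 in InhibNeuron (0.226 ± 0.163, n = 8). ExcitNeuron, at 2.21 ± 1.44 (n = 8), overlapped InhibNeuron through the single cell of FT 4, AstroSub1 through FT 2 and FT 4, and Granule through these and Sham 1. Granule, AstroSub1 and InhibNeuron, neighbours in the order, did not differ beyond their spread. OPC had 10 of 87 cells with a UMI (11.5%, 5.65% to 20.1%), each with 1. Microglia1 was lowest at 0.0303, although its median depth of 6669 UMIs exceeded that of ExcitNeuron.

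**Figure D3:**
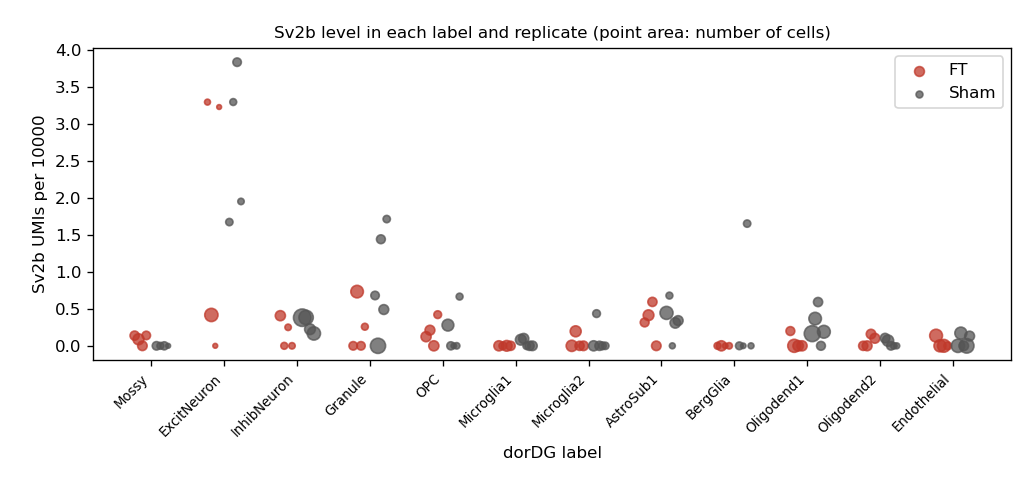
Level of Sv2b (UMIs per 10000) in each dorDG label, 1 point per replicate, coloured by treatment, with point area giving the number of cells. ExcitNeuron reaches 3.83 in Sham replicate 4 and its largest point, FT replicate 2, lies at 0.417, while the points of the Mossy label lie between 0 and 0.140.

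The neuronal labels were also set against their markers, and the grouping was not changed by the outcome. ExcitNeuron met the rule for 4 of 6 excitatory markers and for 9 of 11 hilar and pyramidal neuron genes, including Slc17a7 (5.2 against 0.832), Neurod6 (1.37 against 0.0560), Dkk3 (0.771 against 0.0909) and Gria3 (7.71 against 2.21). InhibNeuron went against its name. In that label 77.6% of the 147 cells had a UMI of Slc17a7 and 17.0% one of Gad1, the gene for a GABA-synthesizing enzyme, and Slc32a1, the vesicular GABA transporter, had 0 UMIs. It met the rule for 1 of 8 inhibitory and 6 of 8 granule cell markers, with Prox1 in 67.3% and Plk5 in 59.2% of cells. Like ExcitNeuron, it met the rule for 4 of 6 excitatory markers, and also for 6 of 11 hilar and pyramidal neuron genes. The summed levels of these 2 lists were 10.1 and 45.6, against 12.8 and 49.1 in ExcitNeuron. The cells labelled Granule, with a median of 1402 UMIs, met it for 0 of 8 granule cell markers. Of 7 pan-neuronal markers InhibNeuron met it for 4 and Granule for 1. Both labels keep the authors' names here and were counted as neuronal.

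Calb2 in dorDG was dominated by 1 cell. ExcitNeuron held 47 of its 76 dorDG UMIs in 5 of 55 cells (9.09%, 3.02% to 19.95%), a level of 1.13. By replicate these were 45 UMIs in Sham 4, 1 in Sham 3 and 1 in FT 2, with 0 in the other 5 replicates that had such cells. A single cell of Sham replicate 4, with 14146 UMIs, held 40 of the 76. This cell also had 7 UMIs of Sv2b, 1 of Ociad2, 24 of Slc17a7, 9 of Gria3, 3 of Prox1 and 2 of Dkk3, and 0 of Gad1 and Gad2. It was the only dorDG cell with 3 of the 6 genes.

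Outside ExcitNeuron, Calb2 was found in 2 Granule cells with 5 and 4 UMIs (FT 5 and Sham 4), giving a level of 0.219, and in single UMIs elsewhere. The 3 neuronal labels together held 59 of the 76 UMIs (77.6%). OPC, the oligodendrocyte precursors, had a Calb2 UMI in 9 of 87 cells (10.3%, 4.84% to 18.7%; median depth 6104 UMIs), 1 UMI in each, at a level of 0.179. These cells came from 7 of the 9 replicates: 1 in FT 1, 2 in FT 2, 1 in FT 4, 2 in FT 5, 1 in Sham 1, 1 in Sham 3, 1 in Sham 5 and none in Sham 2 and Sham 4. Microglia1, at a similar depth, had 1 of 107 cells (0.935%, 0.0237% to 5.10%). So the OPC share was spread over replicates, whereas the ExcitNeuron level rested on Sham replicate 4. Thinned to 1500 UMIs by 1 random draw, 3.70% of 81 OPC cells and 0 of 101 Microglia1 cells kept a UMI.

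Glipr1, which encodes a protein of the CAP superfamily, was found mainly in the microglia labels. Microglia1 had a UMI in 11 of 107 cells (10.3%, 5.24% to 17.7%) and a level of 0.182, and Microglia2 in 2 of 103 cells (1.94%, 0.236% to 6.84%) at a median depth of 1925 UMIs. Together they held 14 of its 18 dorDG UMIs (77.8%), while the 321 cells with neuronal labels held 0. In Microglia1 the counts were 5 in FT 5, 2 in Sham 1, 2 in Sham 2 and 1 in each of FT 2, Sham 4 and Sham 5, with 0 in FT 1, FT 4 and Sham 3. It was thus seen in 6 of 9 replicates of that label.

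Ociad2 showed no label that stood out. OPC (0.0597), ExcitNeuron (0.0482) and Microglia1 (0.0455) had the highest levels from 3, 2 and 3 UMIs, all at or below the 3-count floor of their label, so that their order cannot be read. The only Csf2rb UMI of dorDG, from the common beta chain of several cytokine receptors, was in a Microglia2 cell of FT replicate 4. The 2 Drd2 UMIs were in an ExcitNeuron cell of FT replicate 2 and an InhibNeuron cell of Sham replicate 1.

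Pairs of the genes in the same cell were rare. Calb2 and Sv2b met in 10 dorDG cells, of which 4 were OPC, and in 10 venDG cells. Sv2b and Ociad2 met in 2 dorDG and 7 venDG cells. No dorDG cell had Drd2 or Csf2rb with any other gene of the 6. In venDG, Drd2 met Sv2b in 3 cells and Csf2rb met it in 1. The venDG cell with 4 of the genes came from Sham replicate 3 (7253 UMIs) and had 3 UMIs of Ociad2, 2 of Sv2b and 1 each of Calb2 and Glipr1, without a UMI of Slc17a7.

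Across the 12 dorDG labels, the genes whose log2 levels followed those of Sv2b most closely, of 8368 candidates, were Htr7 (Pearson r = 0.945), Clstn1 (0.943) and Nos1ap (0.943). For Calb2 they were Hunk (0.956), St8sia5 (0.921) and Nts (0.918). Each of these similar genes had its highest level in ExcitNeuron. These are descriptions over 12 labels that share libraries and differ in depth. The Calb2 values rest largely on the cell of Sham replicate 4.

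venDG cells had no authors' labels in the tables used here, so they were clustered and named from marker lists. Sv2b was itself among the genes used for clustering, and its levels over classes are a description. The excitatory-like class (95 cells, median 6765 UMIs) had a Sv2b UMI in 66 cells (69.5%, 59.2% to 78.5%) at a level of 2.64. The neuron-like class (58 cells, median 1567.5 UMIs), in which 55.2% of cells had Slc17a7 and none had Prox1, had 15 cells (25.9%, 15.3% to 39.0%) at a level of 5.71. Granule-like cells followed at 18.7% of 91, inhibitory-like at 17.9% of 28, the unnamed cells at 11.4% of 184 (level 0.532) and OPC-like at 10.0% of 170. Endothelial-like cells were at 3.14% of 255 (1.36% to 6.09%, median 3016 UMIs) and mural-like cells at 3.74% of 107.

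Glipr1 in venDG had 18 of its 25 UMIs in microglia-like cells, in 12 of 388 (3.09%, 1.61% to 5.34%). Csf2rb had 4 of its 7 UMIs in the same class, all in 1 cluster of 36 cells led by RT1-Ba, RT1-Da, Ms4a7, Clec10a and Pf4. Calb2 was at 0.468 in neuron-like cells (5 UMIs in 4 cells) and 0.25 in inhibitory-like cells (3 UMIs in 2 cells), with 9 of 419 oligodendrocyte-like cells and 7 of 170 OPC-like cells (4.12%, 1.67% to 8.30%) carrying 1 UMI each. Drd2 was found in 3 excitatory-like cells (3.16%, 0.656% to 8.95%), 2 OPC-like cells and 5 others. Ociad2 was found in 5 excitatory-like cells, and 3 of its 14 UMIs were in 1 OPC-like cell. Mural-like cells had 2 UMIs of Calb2 and 0 of Drd2, Csf2rb, Ociad2 and Glipr1.

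Whether fluoxetine shifted the level of the 6 genes was tested on sums over all cells of a replicate. No gene differed between FT and Sham in either region at an unadjusted p of 0.05, by two-sided exact permutation tests whose smallest possible p was 0.0159 in dorDG (n = 4 and 5) and 0.00794 in venDG (n = 5 and 5). With the comparisons between regions, 24 comparisons were made, and the smallest Benjamini-Hochberg adjusted p was 0.762.

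For Sv2b the dorDG levels were 0.295, 0.181, 0.0672 and 0.137 in FT replicates 1, 2, 4 and 5. They were 0.280, 0.121, 0.673, 0.756 and 0.352 in Sham replicates 1 to 5. Sham 3, Sham 4 and Sham 5 stood above every FT replicate and Sham 2 below 3 of the 4 FT replicates, so that the groups overlapped. The means were 0.170 ± 0.0957 (SD, n = 4) in FT and 0.436 ± 0.269 (n = 5) in Sham, a difference of -0.266 (exact permutation p = 0.127).

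In venDG the Sv2b levels were 0.515, 0.565, 0.203, 0.640 and 0.457 in FT replicates 1 to 5 and 0.445, 0.590, 0.863, 0.337 and 1.07 in Sham replicates 1 to 5. Sham 3 and Sham 5 lay above all FT replicates and FT 3 below all Sham replicates. The means were 0.476 ± 0.167 and 0.662 ± 0.304, a difference of -0.186 (exact permutation p = 0.278, n = 5 and 5). The FT effect on Sv2b did not differ detectably between the regions (difference -0.08, exact permutation over 31752 splits, p = 0.737, n = 4 to 5). That test took the replicates of the regions as independent.

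Calb2 in dorDG was at 0.0134, 0.0339, 0.0336 and 0.12 in FT replicates 1, 2, 4 and 5 and at 0.0543, 0.0173, 0.0815, 0.838 and 0.0185 in Sham 1 to 5. Sham 4, with the cell of 40 UMIs, stood apart from the 8 others. The means were 0.0502 ± 0.0474 and 0.202 ± 0.357 (exact permutation p = 0.667, n = 4 and 5). The difference of -0.152 became -0.00691 without the cells labelled ExcitNeuron, an alternative chosen after the data were seen, and 0.00732 without Sham 4. In venDG the FT replicates 1 to 5 were at 0.0476, 0.0652, 0.0459, 0.0272 and 0.0609 and the Sham replicates at 0.0363, 0.0295, 0.0908, 0.0675 and 0.0717, which overlapped (0.0494 ± 0.0149 against 0.0592 ± 0.0256, exact permutation p = 0.484, n = 5 and 5).

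Glipr1 in dorDG was at 0.0134, 0.0113, 0 and 0.103 in FT replicates 1, 2, 4 and 5 and at 0.0181, 0.0691, 0, 0.0493 and 0.0185 in Sham 1 to 5 (exact permutation p = 0.984, n = 4 and 5). Ociad2 was at 0, 0.0339, 0.0168 and 0.0171 in the same FT replicates and at 0.00904, 0.0346, 0, 0.0493 and 0.0185 in the Sham replicates (exact permutation p = 0.651, n = 4 and 5). The highest dorDG value of Glipr1 was FT 5 and that of Ociad2 Sham 4, and the groups overlapped for both genes. In venDG the ranges of FT and Sham were 0.00953 to 0.0545 and 0 to 0.0675 for Glipr1 (exact permutation p = 0.849, n = 5 and 5) and 0 to 0.0362 and 0 to 0.136 for Ociad2 (exact permutation p = 0.841, n = 5 and 5).

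Drd2 was above 0 in 1 of 4 FT (0.0113, FT 2) and 1 of 5 Sham replicates of dorDG (0.00904, Sham 1). In venDG it was at 0.0362 in FT 2, 0.0197 in FT 3, 0.00908 in Sham 1 and 0.0358 in Sham 5 and at 0 in the 6 other replicates. Csf2rb was at 0.0168 in dorDG FT 4 and at 0 in the 8 other dorDG replicates. It reached 0.00953 and 0.0145 in venDG FT 1 and FT 2 and 0.0295 and 0.0225 in venDG Sham 2 and Sham 4. A count of 0 in a replicate allows up to 3 UMIs, and no direction can be read for either gene (exact permutation p = 0.889 and 0.889 in dorDG, 0.841 and 0.563 in venDG, n = 4 to 5).

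**Figure D4:**
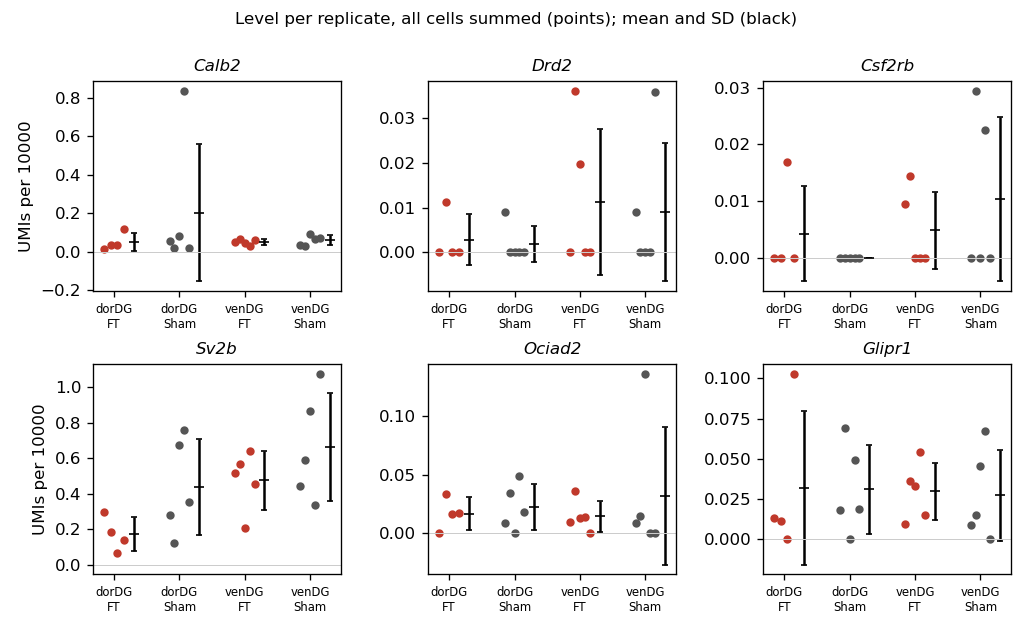
Level of each gene (UMIs per 10000, axis scaled per gene) in every replicate of the 4 groups as points, with the group mean and SD in black. FT and Sham points overlap within each region in every panel, and the 0.838 of Calb2 in dorDG Sham replicate 4 lies far from the other replicates.

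Between regions, Sv2b was lower in dorDG than in venDG among FT replicates, by a difference of -0.306 (means 0.170 and 0.476, exact permutation p = 0.0317, n = 4 and 5). The groups overlapped, since dorDG FT 1 lay above venDG FT 3, and over the 24 comparisons the adjusted p was 0.762. When 1 replicate was left out at a time, the difference ran from -0.374 to -0.265 and the p was above 0.05 in 7 of 9 cases, all but those without dorDG replicate 1 or venDG replicate 3. In cells with at least 2% ribosomal UMIs the difference was -0.136 (exact permutation p = 0.159, n = 4 and 5). Blocked by replicate number it was -0.374 over 4 pairs (exact permutation p = 0.125, the smallest that 4 pairs allow). Among Sham replicates, without a block, it was -0.226 (exact permutation p = 0.254, n = 5 and 5). For the other 5 genes the regional p-values ran from 0.444 to 1.

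Across all genes of dorDG, edgeR's quasi-likelihood test on replicate sums called 1221 of 4274 genes between FT and Sham (28.6%), taking a gene as called when its Benjamini-Hochberg adjusted p was no more than 0.2 and its log2 fold change at least 0.32 in either direction. None of the 6 genes passed its filter of a mean of 0.5 UMIs per 10000, so none could be called there. When replicate number was added as a block, 0 of the 4274 genes were called (891 at an unadjusted p under 0.05). FT and Sham replicates also differed in the share of cells under 2% ribosomal UMIs (means 23.0% and 51.2%). The part of that difference in the calls was not tested. With every gene of at least 10 UMIs, which lowered the called share to 0.201%, 4 of the 6 were tested and 0 called. DESeq2 was run only with the first filter. In the fit with at least 10 UMIs, 1 of the 4 had an unadjusted p under 0.05, against 2294 of all 15937 genes tested. It was Sv2b, with a log2 fold change of -1.11 (SE 0.43, edgeR p = 0.0171, adjusted p = 0.307). Calb2 was at -1.88 (SE 0.93, edgeR adjusted p = 0.360).

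In venDG edgeR called 0% of 4079 genes (236 at an unadjusted p under 0.05, and 18 called by DESeq2, 0.441%). Sv2b, the only gene of the 6 that passed the filter, was at a log2 fold change of -0.38 (SE 0.35, edgeR adjusted p = 0.820), and neither edgeR nor DESeq2 gave it an unadjusted p under 0.05. Within dorDG labels, 9 of 12 had enough cells for the test. Only Sv2b in Granule passed the filter (log2 fold change -0.85, SE 0.94, edgeR adjusted p = 0.759). So 0 of the 6 genes were called, and 0 had an unadjusted edgeR p under 0.05. Of the 3938 genes tested in Granule, 0% were called and 332 had an unadjusted edgeR p under 0.05. The share of genes called was 6.15% in Oligodend1, 0.0581% in Microglia2, 0.029% in Oligodend2 and 0.0232% in AstroSub1, and 0% in the other labels tested. In the Mossy label edgeR called 0 of 3861 genes (143 at an unadjusted p under 0.05), and none of the 6 was abundant enough to be among them.

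When replicates with a single cell of a label were also admitted, edgeR called 1 of the 6 genes, Calb2 in ExcitNeuron, with a log2 fold change of -4.29 (SE 1.10, edgeR adjusted p = 0.0787), among 0.162% of 4310 genes. This call rested on Sham replicate 4. Without that replicate Calb2 no longer passed the filter, and 0 of 4237 genes were called (252 at an unadjusted p under 0.05).

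Relatives of the 6 genes and further hilar genes were looked at in the same dorDG fit. Of 15 relatives 2 were tested and 0 called (1 by DESeq2, which called 43.3% of all genes, and 0 at an unadjusted edgeR p under 0.05), namely Sv2c (log2 fold change -0.59, edgeR adjusted p = 0.224) and Ociad1 (0.34, edgeR adjusted p = 0.334), with a median of -0.12 against -0.04 for all genes. Of 12 hilar and pyramidal neuron genes 5 were tested and 2 fell, the glutamate receptor subunits Gria2 (-0.98, edgeR adjusted p = 0.164) and Gria3 (-0.79, edgeR adjusted p = 0.196). Of all 4274 genes 689 fell, and 28.6% were called in either direction. Only 1 of the 5, Gria2, had an unadjusted edgeR p under 0.05, against 1085 of all genes. Of the 18 mural markers 3 were tested and 3 rose, against 532 of all 4274 genes, namely Tagln (3.35), Higd1b (1.34) and Vtn (1.22). The cells labelled Mossy, which carry these markers, numbered 49 among 570 FT cells and 23 among 719 Sham cells. By replicate they numbered 11, 17, 12 and 9 in FT 1, 2, 4 and 5 and 9, 5, 0, 8 and 1 in Sham 1 to 5. The part of the number of cells labelled Mossy in the rise was not tested. Within that label 0 of 13 mural markers were called (1 at an unadjusted edgeR p under 0.05; median 0.13, with Higd1b at 0.13, Vtn at 0.14 and Tagln at 2.05), and in venDG 0 of 4 (median -0.17; 0 by DESeq2 and 0 at an unadjusted p under 0.05). With the filter of at least 10 UMIs, 0 of 10 hilar genes (3 at an unadjusted p under 0.05) and 2 of 16 mural markers (8 at an unadjusted p under 0.05) were called by edgeR. Among all 15937 genes of that fit, 32 were called and 2294 had an unadjusted p under 0.05. With the first filter DESeq2 called 1 hilar gene higher and 2 lower of 5 and 1 of 3 mural markers, where it called 43.3% of all genes. When replicate number was added as a block, edgeR called 0 of the 5 hilar genes (median -0.30) and 0 of the 3 mural markers (median 1.03). At an unadjusted p under 0.05 there were 1 and 3. Among all 4274 genes of that fit, 0 were called.

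The share of cells with a Sv2b UMI was compared at a fixed depth, since cells differed in UMIs. For each cell with at least 1500 UMIs, the chance that 1500 of its UMIs hold one of Sv2b was computed exactly and averaged, an alternative chosen after the data were seen. It left out 123 FT and 176 Sham cells in dorDG and 288 and 183 in venDG. In dorDG the FT replicates 1, 2, 4 and 5 were at 2.66%, 2.46%, 0.623% and 1.86% of cells. The Sham replicates 1 to 5 were at 4.6%, 3.53%, 7.35%, 6.13% and 3.28%.

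All Sham replicates thus lay above all FT replicates. The means were 1.90% ± 0.918 (SD, n = 4) and 4.98% ± 1.74 (n = 5), a difference of -3.08 percentage points at the smallest p the design allows (exact permutation p = 0.0159). Without a fixed depth the shares were 6.28% ± 2.36 and 10.9% ± 4.23 (exact permutation p = 0.0952, n = 4 and 5).

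Within kinds of cell the difference kept its direction but did not pass the threshold. The share of cells with a neuronal label averaged 16.6% ± 8.09 over FT replicates and 31.5% ± 8.37 over Sham replicates (exact permutation p = 0.0476, n = 4 and 5). Among neuronal labels the fixed-depth Sv2b share averaged 5.76% ± 3.55 for FT and 8.41% ± 6.23 for Sham (exact permutation p = 0.460, n = 4 and 5). Among all other labels it was 1.09% ± 0.35 and 2.26% ± 1.45 (exact permutation p = 0.175, n = 4 and 5). The share among neuronal labels rested on 9 (FT 4) to 59 (Sham 1) cells per replicate. A p above the threshold in such a part cannot be read as no difference. The part of the neuronal share in the FT difference was not tested.

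In a split by ribosomal share neither part passed the threshold. Within cells under 2% ribosomal UMIs the FT share averaged 4.27% ± 3.50 and the Sham share 8.79% ± 4.03 (exact permutation p = 0.111, n = 4 and 5), and within the other cells 1.16% ± 0.779 and 2.15% ± 0.926 (exact permutation p = 0.111, n = 4 and 5). Both differences kept the direction with overlapping groups. Sv2b was higher in the second reaction in 8 of the 8 replicates with 2 reactions (0.0583 to 0.551 in the first, 0.175 to 1.74 in the second), the reaction that held most of the cells of low ribosomal share. The part of that mixture in the FT difference was not tested.

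In venDG the fixed-depth share of Sv2b averaged 4.81% ± 1.44 for FT and 7.13% ± 2.52 for Sham (exact permutation p = 0.111, n = 5 and 5), with overlapping groups. Neuronal classes were 16.8% ± 4.94 and 13.2% ± 4.24 of the cells (exact permutation p = 0.246, n = 5 and 5), with means in the opposite order to those of dorDG. The level of Sv2b outside those classes averaged 0.113 ± 0.0749 for FT and 0.301 ± 0.152 for Sham (exact permutation p = 0.0556, n = 5 and 5). An unnamed cluster of 163 cells had pan-neuronal genes as its best list and made up much of some replicates. With it counted as neuronal, an alternative chosen after the data were seen, the neuronal share averaged 23.1% ± 8.99 for FT and 20.3% ± 10.5 for Sham (exact permutation p = 0.611, n = 5 and 5). The level outside was then 0.0933 ± 0.0428 for FT and 0.279 ± 0.143 for Sham (exact permutation p = 0.0317, n = 5 and 5, not adjusted).

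**Figure D5:**
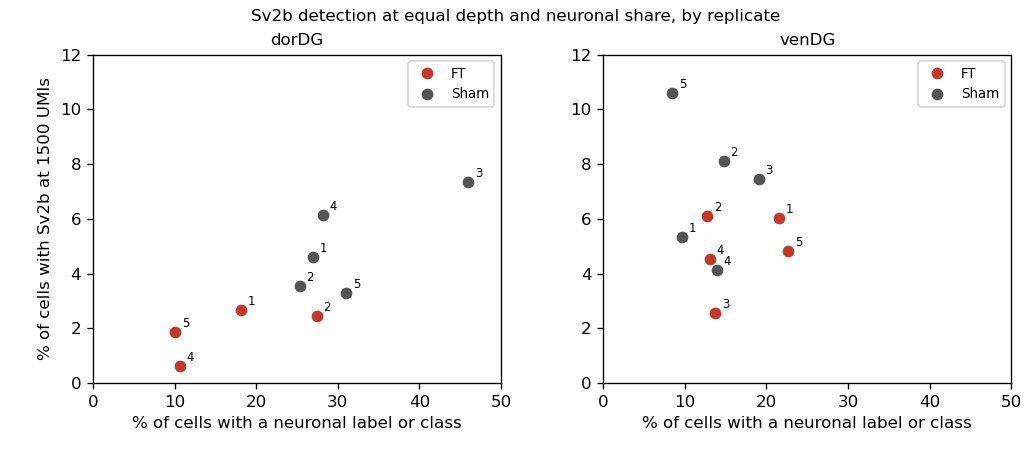
Percent of cells with a Sv2b UMI at 1500 UMIs per cell (exact expectation, vertical axis) against the percent of cells with a neuronal label or class (horizontal axis), 1 numbered point per replicate. On the vertical axis the 4 dorDG FT replicates lie between 0.623% and 2.66% and the 5 dorDG Sham replicates between 3.28% and 7.35%, while the venDG groups overlap.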

How the data were processed

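Single-cell 3′ libraries were made from dorDG and venDG of FT and Sham rats (108 libraries, 27 reactions, 4 libraries each). The deposited values are raw counts of UMIs for every gene and cell, which the authors made with Cell Ranger count 2.1.0 on rn5 per the submitters' processing notes, after filtering cells, and the authors' annotation gives other per-cell information, among it the dorDG labels. The rat table of 19127 symbols was used as given. In venDG, 170 columns whose reaction name has an extra ending not found in the labels were left out. No doublet caller was run and no further cells were removed.

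Counts were summed over all cells of a replicate (a replicate number of the labels, all reactions together) and expressed per 10000 UMIs. Single genes were compared with two-sided exact permutation tests over replicates (numpy 2.4.6). Whole tables were fitted with edgeR 4.0.16 (R 4.3.3, TMM, quasi-likelihood), with DESeq2 1.42.0, a filter of at least 10 UMIs and a replicate block as alternatives. Within labels, a replicate needed 5 cells and a group 3 replicates. The models were tested on simulated data. Shares of cells have exact Clopper-Pearson 95% intervals (scipy 1.17.1). venDG cells were clustered with scanpy 1.11.5 (2000 variable genes, 30 components, 15 neighbours, Leiden resolution 2.0) into 27 clusters. Of these, 25 took the name of the marker list with most markers at least 2-fold higher and found in 10% of cells, with 3 or more markers needed, and 2 (184 cells) stayed unnamed. Among them, 5 microglia-like clusters included some led by immune genes such as Il1b and Ccl2.

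The 6 genes were given by name. For genes with at least 20 UMIs, those most alike were found by Pearson correlation of log2(level + 0.1) over the 12 labels among genes of at least 100 UMIs. The genes and lists were chosen with earlier results of these data known. Deviations of same-numbered dorDG and venDG replicates correlated at 0.196 to 0.547 in 5 Sham pairs. In FT they did so at 0.0946 to 0.348. No values for different-numbered replicates are given, so these correlations cannot decide whether a number pairs the regions. Unless a block is named, the tests between regions took dorDG and venDG replicates as independent. FT and Sham replicates also share numbers. The study's methods state, for the frozen tissue of the bulk assays, that Sham and FT samples of a replicate were handled side by side. Whether this held for the single-cell reactions is not stated. Blocking changed no Sham call between regions.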

Additional observations from a re-analysis of the deposited data

Results flagged for a closer look

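Among 23 groups of replicates with any UMI, 7 held a replicate that stood apart from the others by Dixon's ratio. For normal values chance gives about 1 in 20, but a group with 1 UMI and zeros elsewhere has the highest possible ratio by construction, so the number of such groups cannot be set against that rate. Calb2 in dorDG Sham replicate 4 was at 0.838 UMIs per 10000 (51 UMIs), against 0.0173 to 0.0815 in the other Sham replicates, and 40 of these UMIs were in 1 ExcitNeuron cell. Glipr1 in dorDG FT replicate 5 was at 0.103 (6 UMIs), against 0 to 0.0134. Ociad2 in venDG Sham replicate 3 was at 0.136 (3 UMIs, all in the cell that carried 4 of the 6 genes), against 0 to 0.0148.

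The other 4 rested on 1 UMI each. They were Drd2 at 0.0113 in dorDG FT replicate 2, at 0.00904 in dorDG Sham replicate 1 and at 0.0358 in venDG Sham replicate 5, and Csf2rb at 0.0168 in dorDG FT replicate 4.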

How the results depend on the processing

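Of 141 alternative values other than those leaving out a replicate, 118 kept their direction and their side of the threshold. As a share of cells at 1500 UMIs, Sv2b, FT minus Sham, passed the threshold in dorDG. The difference was -4.12 percentage points with 1 random draw (exact permutation p = 0.0159) and -3.08 with the exact expectation (exact permutation p = 0.0159). In venDG it passed with 1 draw (-3.54, exact permutation p = 0.0317) but not with the exact expectation (-2.32, exact permutation p = 0.111). The dorDG minus venDG difference of Sv2b in FT lost the threshold in cells of at least 2% ribosomal UMIs (-0.136). With the replicate block it was -0.374, in a design of 4 pairs that cannot reach 0.05. The level of Sv2b in venDG outside the neuronal classes and the unnamed cluster with neuronal genes differed by -0.185 (exact permutation p = 0.0317). With 1 cell per replicate admitted, the count of genes called within labels moved from 0 to 1.

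Signs turned for sparse genes, and the cause was not tested. In cells of at least 2% ribosomal UMIs this was so for Calb2 (dorDG minus venDG, FT, -0.0159), Csf2rb (same comparison, 0.00208), Drd2 in venDG (-0.00176) and Glipr1 in dorDG (-0.00471) and venDG (-0.00405). With per-cell log values it was so for Drd2 in dorDG (-0.000406) and venDG (-0.00424) and Glipr1 in dorDG (-0.000189), and with thinned shares for Drd2 (-0.106 and -0.0122). Without ExcitNeuron cells it was so for Drd2 (-0.00188), Ociad2 (0.00199) and Glipr1 (-0.000293) in dorDG, and in cells of at least 1000 genes for Calb2 in venDG (0.00434).

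Leaving out 1 replicate at a time gave, for FT minus Sham in dorDG, -0.198 to 0.00732 for Calb2, -0.00181 to 0.00282 for Drd2, -0.0110 to 0.00143 for Ociad2 and -0.0228 to 0.0115 for Glipr1. In venDG it gave -0.00406 to 0.00891 for Drd2, -0.0255 to 0.00854 for Ociad2 and -0.00453 to 0.0123 for Glipr1. For dorDG minus venDG in FT it gave -0.0224 to 0.0131 for Calb2, -0.00480 to 0.00182 for Csf2rb, -0.374 to -0.265 for Sv2b (past the threshold in 2 of 9), -0.00318 to 0.00811 for Ociad2 and -0.0214 to 0.0129 for Glipr1. In Sham it gave -0.0163 to 0.189 for Calb2, -0.0177 to 0.0163 for Ociad2 and -0.00587 to 0.0137 for Glipr1.

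Deviations of FT and Sham replicates of the same number showed no steady correlation (-0.212 to 0.366 in dorDG and -0.151 to 0.267 in venDG). With 4 and 5 pairs, these values cannot decide whether the number marks a shared batch. With the replicate block, the Sv2b difference was -0.207 in dorDG (sign-flip exact permutation p = 0.5, smallest possible 0.125) and -0.186 in venDG (exact permutation p = 0.438), Glipr1 in dorDG turned to -0.00687 and Calb2 between regions in FT to -2.14e-05, and edgeR called 0 of 4274 dorDG genes against 1221 without it (DESeq2 1849, and 32 of 15937 with at least 10 UMIs), so that the calls of hilar genes and mural markers were lost with the rest (891 genes, among them 1 hilar gene and 3 mural markers, had an unadjusted p under 0.05). Depth limits Drd2 and Csf2rb most, with 2 and 1 UMIs in dorDG.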
